A study of Mus musculus with 48 samples.

Results

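The 34 genes described here encode proteins that bring fatty acids into muscle and burn them by beta-oxidation. They were taken by name from the deposited table of gene counts, which holds 54532 mouse genes. The rule itself uses no measured value, but the list was chosen with earlier results of these data known. By the role of the protein they fall into 14 enzymes of the mitochondrial beta-oxidation spiral, 3 of electron transfer, 3 carnitine acyltransferases, 4 synthetases and thioesterases, 6 peroxisomal enzymes and 4 uptake genes. All 34 were among the 15583 genes with enough counts to be tested.

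Gastrocnemius, a calf muscle made mostly of fast fibres, was sampled once from each of 48 mice and its messenger RNA was sequenced. Perfluorooctane sulfonate (PFOS), a fluorinated surfactant that persists in the body, was given by oral gavage daily for 21 days at 0, 1 or 10 mg/kg/day. The series asks about mitochondrial metabolism of the muscle. Mice were of 2 genotypes: in hCYP2B6-Tg the transgene is CYP2B6, a human cytochrome P450, and in Cyp2b-null the mouse Cyp2b genes are absent. The sources used here do not give the promoter of the transgene, whether its carriers also lack the mouse genes, or the age of the mice. At 0, 1 and 10 mg/kg/day there were 4, 4 and 4 hCYP2B6-Tg females, 5, 4 and 4 hCYP2B6-Tg males, 4, 4 and 4 Cyp2b-null females, and 4, 4 and 3 Cyp2b-null males. Each combination of genotype and sex is called a stratum, and the 4 strata with 3 doses make 12 groups.

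A fatty acid reaches the fibre after lipoprotein lipase frees it from blood lipids, crosses the membrane with the help of transporters, and is carried inside by a binding protein. It is tied to coenzyme A, handed to carnitine to enter the mitochondrion, and shortened there in repeated rounds of dehydrogenation, hydration, a second dehydrogenation and thiolysis. The dehydrogenases pass electrons through the electron transfer flavoprotein to ubiquinone, and peroxisomes shorten chains that mitochondria handle poorly. In resting muscle this pathway supplies much of the energy, and oxidative fibres carry more of it than glycolytic ones.

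Total counts per library were 11571142 to 19921061. Levels are given as CPM, read counts brought to a common library size that was scaled with TMM, and the scaling factors were 0.995 to 1.33 at 10 mg/kg/day against 0.851 to 1.02 at 0 mg/kg/day. Fast fibre transcripts were abundant in every library (summed CPM 45682 to 84051 at 10 mg/kg/day and 82855 to 115096 at 0 mg/kg/day, with 3 of 6 markers lower), as the tissue label says, although the extraction text of the labels names liver. Slow fibre markers varied widely (152.03 to 5697 CPM at 10 mg/kg/day and 23.0 to 5461 CPM at 0 mg/kg/day, 0 of 6 passing). Of 8 adipocyte markers, 6 were higher at 10 mg/kg/day and 1, Car3, which fibres also express, was lower. Their sum was 1413 to 3440 CPM at 10 mg/kg/day and 1689 to 4865 CPM at 0 mg/kg/day, and without Car3 it was 27.8 to 1492 CPM at 10 mg/kg/day and 6.70 to 262.2 CPM at 0 mg/kg/day, and Lep had no count in 6 libraries. All 4 lymph node markers were higher (summed CPM 0.129 to 90.6 at 10 mg/kg/day and 0 to 51.6 at 0 mg/kg/day), though Glycam1 had no count in 40 libraries. No liver marker passed among the 4 of 6 tested (summed CPM 0 to 6.68 at 10 mg/kg/day and 0 to 22.1 at 0 mg/kg/day), but replicate 2 of the Cyp2b-null males given 1 mg/kg/day held 27859 counts of Alb. That library and 5 with lymph node transcripts were also left out together as a check. The 5 were replicate 4 of the hCYP2B6-Tg females at 0 mg/kg/day and, at 10 mg/kg/day, replicate 1 of the hCYP2B6-Tg females and replicate 3 of each other stratum. Of 6 macrophage markers 2 were higher, and of 6 endothelial markers 1 was higher and 1 lower. The part of these cell types in the results below was not tested beyond the fits named there. In whole muscle, fewer cells of a type and less RNA per cell cannot be told apart. The library numbers in the labels rise with dose inside each stratum, so dose and any handling that followed that order cannot be told apart.

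At 10 mg/kg/day most enzymes of mitochondrial fatty acid oxidation were lower than at 0 mg/kg/day. Of the 34 genes 18 were lower, 3 were higher and 13 did not pass, in edgeR's quasi-likelihood test averaged over the 4 strata (Benjamini-Hochberg adjusted p under 0.05 over all genes tested). The dose moved much of the transcriptome: 47.5% of all genes tested were called, 22.5% lower and 25.0% higher. The median log2 fold change of the 34 was -0.25, against 0.04 over all genes tested. By compartment, 15 of 22 mitochondrial genes were lower and 1 was higher (median -0.34), 2 of 6 peroxisomal genes were lower (median -0.15), and of 4 uptake genes 1 was lower and 1 higher (median 0.18). When libraries were scaled by their totals alone, the median of all genes moved to 0.26 and that of the 34 to -0.04. Of the 34, 11 were then lower and 7 higher, where 1642 of all 15583 genes tested were lower and 7520 higher. Acadm, Acadvl, Eci1, Etfa, Etfdh, Acad11 and Acaa1a then did not pass. Acadl, Etfb, Ehhadh and Decr2, which did not pass under either scaling, turned from below 0 to above it. Without replicate 3 of the Cyp2b-null males given 0 mg/kg/day the counts were 17 lower and 5 higher.

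**Figure D1:**
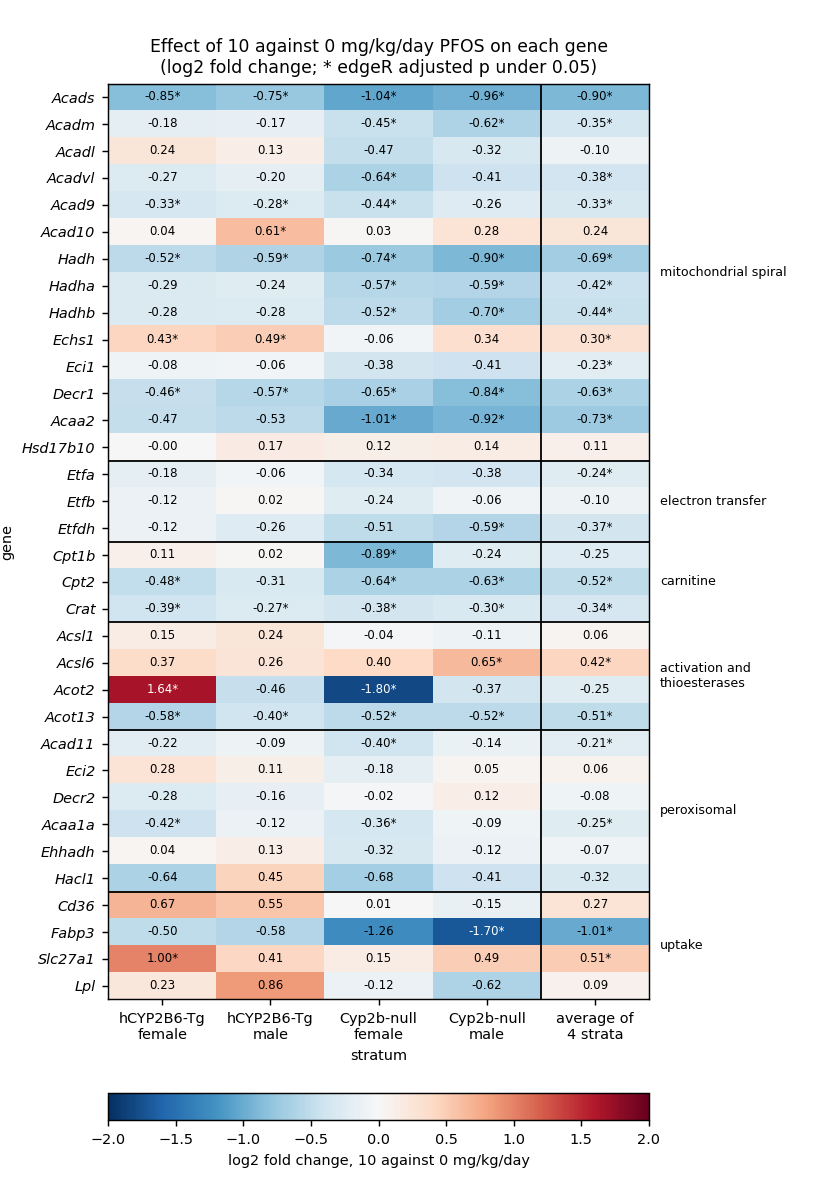
Log2 fold change of each of the 34 genes at 10 against 0 mg/kg/day PFOS in each stratum and averaged over the 4 strata, with genes in rows by role; blue is lower and red higher at 10 mg/kg/day, and an asterisk marks an adjusted p under 0.05 in edgeR's test. Acads, Hadh, Decr1, Crat and Acot13 are blue and marked in every column, while Acot2 is 1.64 in female hCYP2B6-Tg and -1.80 in female Cyp2b-null mice.

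In the mitochondrial spiral 10 of 14 genes fell, 1 rose and 3 did not pass (median -0.37, range -0.90 to 0.30). The 4 dehydrogenases that begin each round divide the work by chain length. Acads, which takes short chains, had the deepest fall of the 14. The gene (ENSMUSG00000029545) lies on chromosome 5 at 115110299 to 115119346, minus strand, of GRCm38. Its levels in hCYP2B6-Tg females were 40.9, 38.1, 39.5 and 36.9 CPM at 10 mg/kg/day, against 77.4, 72.6, 66.9 and 63.5 CPM at 0 mg/kg/day. In hCYP2B6-Tg males they were 36.3, 49.1, 25.2 and 47.0 CPM, against 68.2, 68.3, 51.7, 81.7 and 61.4 CPM. The treated mice of both groups lay below every untreated mouse of their group. Cyp2b-null females had 33.5, 34.5, 27.7 and 48.5 CPM at 10 mg/kg/day, against 74.6, 76.6, 71.9 and 73.9 CPM at 0 mg/kg/day. Cyp2b-null males had 32.1, 33.2 and 35.6 CPM, against 62.6, 61.7, 79.1 and 58.8 CPM. No treated mouse reached the lowest untreated mouse of its stratum, and across all strata the highest treated value (49.1 CPM) was also below the lowest untreated one (51.7 CPM). The log2 fold change was -0.90 ± 0.08 (SE, adjusted p = 1.2e-11), a level 0.535 times that at 0 mg/kg/day, and it passed in all 4 strata and without any 1 library (-0.85 and -0.75 in female and male hCYP2B6-Tg mice, -1.04 and -0.96 in female and male Cyp2b-null mice).

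The dehydrogenases of longer chains had smaller fold changes. Acadm, for medium chains, had a lowest, median and highest level of 179.2, 256.3 and 321.1 CPM at 10 mg/kg/day, against 259.0, 333.5 and 514.6 CPM at 0 mg/kg/day (-0.35 ± 0.08, adjusted p = 2.79e-04). Acadvl, for very long chains at the inner membrane, had 73.5, 111.8 and 153.4 CPM against 118.6, 136.9 and 241.9 CPM (-0.38 ± 0.10, adjusted p = 0.00106). The ranges of both overlapped between doses. Neither passed in a hCYP2B6-Tg stratum. Acadm passed as lower in both Cyp2b-null strata and Acadvl in Cyp2b-null females, but each of those calls was lost without some single library. Acadl, for long chains, did not pass (-0.10 ± 0.14, 95% interval -0.38 to 0.17); its levels of 101.9, 182.8 and 368.3 CPM and 149.9, 211.3 and 382.3 CPM cover nearly the same span. Of Acadvl's exonic bases 42.9% lie over Dvl2 on the opposite strand, and whether the counts used strand is not given. Acad9, a family member that also serves in assembly of respiratory complex I, fell by a small and even amount (22.0, 26.3 and 29.1 CPM against 27.6, 32.1 and 37.2 CPM, -0.33 ± 0.05, adjusted p = 1.79e-07). Acad10, a less studied relative, averaged 8.05 ± 1.73 CPM against 6.79 ± 1.28 CPM (SD, n = 15 and 17) and did not pass (0.24 ± 0.11, adjusted p = 0.0711). It passed without any of 3 libraries: replicate 4 of the hCYP2B6-Tg females given 10 mg/kg/day (0.28), replicate 2 of the Cyp2b-null females given 10 mg/kg/day (0.27) and replicate 3 of the Cyp2b-null males given 0 mg/kg/day (0.29).

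Of the 8 genes that act after the first dehydrogenation or on unsaturated chains 6 fell, 1 rose and 1 did not pass. Hadh (chromosome 3, 131233419 to 131272101, minus strand), the hydroxyacyl-CoA dehydrogenase for medium and short chains, had a lowest, median and highest level of 67.8, 89.0 and 105.4 CPM at 10 mg/kg/day, against 106.1, 142.1 and 211.4 CPM at 0 mg/kg/day. All 15 treated mice were below all 17 untreated mice. Its log2 fold change was -0.69 ± 0.07 (adjusted p = 3.06e-10), with -0.52 and -0.59 in female and male hCYP2B6-Tg mice and -0.74 and -0.90 in female and male Cyp2b-null mice, each past the threshold. Hadha and Hadhb, the alpha and beta subunits of the trifunctional protein that completes the spiral for long chains, fell together (-0.42 ± 0.09, adjusted p = 7.02e-05, and -0.44 ± 0.08, adjusted p = 1.68e-05). Hadha had 199.8, 265.4 and 402.8 CPM against 291.8, 360.4 and 594.0 CPM, and Hadhb had 142.1, 205.5 and 262.4 CPM against 220.4, 276.8 and 472.5 CPM. Acaa2, the thiolase that splits off acetyl-CoA, had 57.3, 90.1 and 130.8 CPM against 89.2, 136.1 and 265.2 CPM (-0.73 ± 0.14, adjusted p = 2.05e-05). The treated and untreated ranges of these 3 genes overlapped across strata. None of the 3 passed in either hCYP2B6-Tg stratum. All 3 passed as lower in both Cyp2b-null strata, but each of those calls was lost without some single library.

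Decr1 and Eci1 prepare unsaturated fatty acids for the spiral, Decr1 as dienoyl-CoA reductase and Eci1 as enoyl-CoA isomerase. Decr1 had 49.5, 68.4 and 84.3 CPM at 10 mg/kg/day, against 87.1, 102.6 and 161.6 CPM at 0 mg/kg/day, and no treated mouse reached an untreated one. Its log2 fold change was -0.63 ± 0.08 (adjusted p = 3.91e-08). Eci1 had the smallest fall of the 10 spiral genes that fell (71.0, 84.1 and 100.7 CPM against 73.3, 93.5 and 159.9 CPM, -0.23 ± 0.09, adjusted p = 0.0237). That call rests on 1 control, replicate 3 of the Cyp2b-null males given 0 mg/kg/day, without which the value was -0.16 (adjusted p = 0.074), and it was -0.18 (adjusted p = 0.172) without the 6 libraries.

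Echs1 (chromosome 7, 140105710 to 140116476, minus strand), the short-chain enoyl-CoA hydratase, which also serves valine breakdown, was the 1 spiral gene that rose. In hCYP2B6-Tg males it had 138.7, 144.2, 148.8 and 130.1 CPM at 10 mg/kg/day, against 113.96, 100.1, 81.7, 106.2 and 97.6 CPM at 0 mg/kg/day. All 4 treated mice were above all 5 untreated ones. In Cyp2b-null females the treated mice had 159.995, 78.9, 132.6 and 103.2 CPM, against 117.5, 141.4, 118.4 and 116.6 CPM, and the groups overlapped. Its log2 fold change was 0.30 ± 0.08 (adjusted p = 0.00216) averaged over strata, with 0.43 and 0.49 in female and male hCYP2B6-Tg mice and -0.06 and 0.34 in female and male Cyp2b-null mice. A test for any difference among the strata gave an adjusted p of 0.379. Hsd17b10, a hydroxyacyl-CoA dehydrogenase of branched chains that is also a subunit of mitochondrial RNase P, averaged 50.2 ± 6.2 CPM against 46.5 ± 4.47 CPM and did not pass (0.11 ± 0.05, adjusted p = 0.1).

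**Figure D2:**
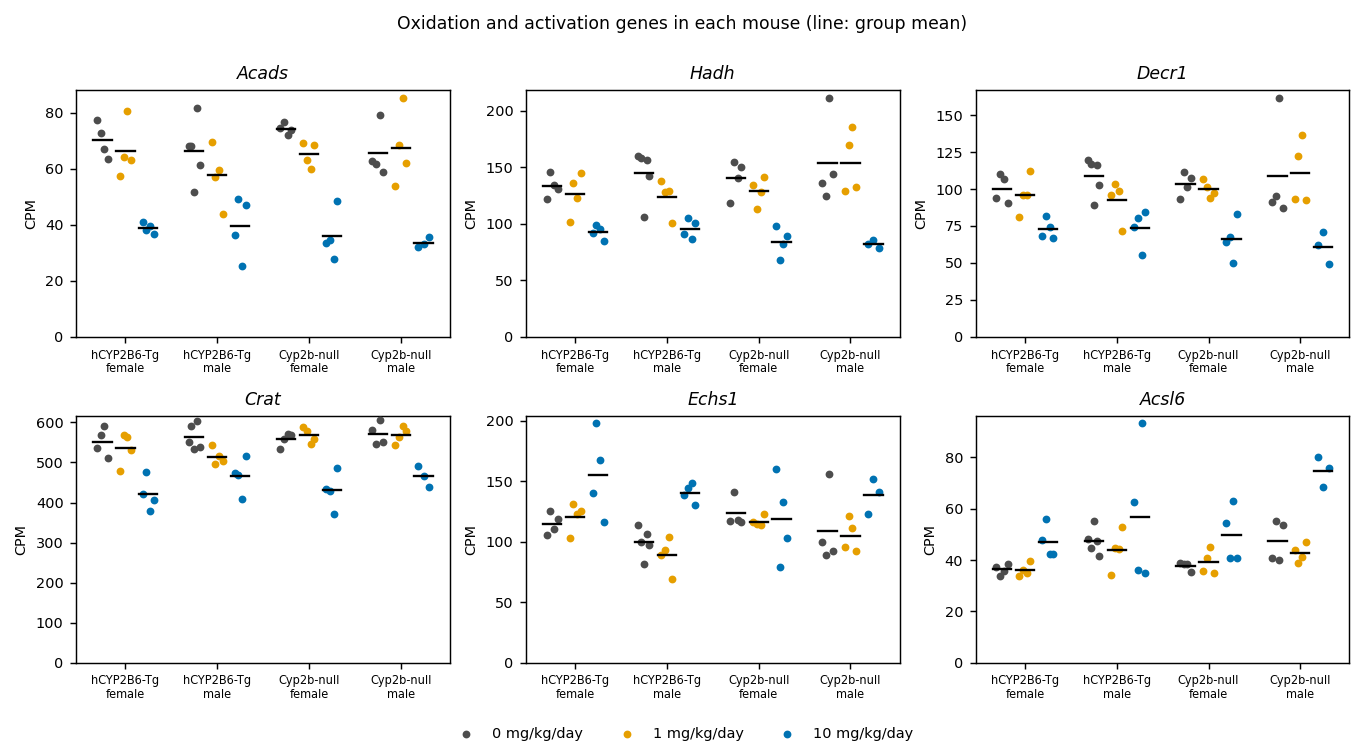
CPM of Acads, Hadh, Decr1, Crat, Echs1 and Acsl6 in each mouse (points) by stratum, with 0, 1 and 10 mg/kg/day PFOS side by side and a line at each group mean; the CPM axes start at 0. In Acads, Hadh, Decr1 and Crat the points at 10 mg/kg/day lie below those at 0 mg/kg/day in every stratum, and group means at 1 mg/kg/day lie near those at 0 mg/kg/day.

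Promoter windows show the DNA around the start sites of genes that fell, rose or did not pass. RefSeq windows on GRCm38.p6, from 250 bases before to 50 bases after a gene's start, were at hand for 27 of the 34 genes (32 windows), out of 32851 windows in all. Each was searched on both strands for short motifs. The GC box (GGGCGG) was in 24 of the 32 windows (21 of the 27 genes) and in 35.7% of all windows. CCAAT was in 17 of the 32 (15 genes) and in 37.4% of all. CACGTG was in 1 of the 32 (Slc27a1) and in 7.15% of all, and TATAAA in 0 of the 32 and in 13.6% of all. AAGGTCA, a single extended site of nuclear receptors, was in 2 of the 32 windows, those of Acadm and Acsl6, and in 4.72% of all windows. Its longer form TCAAGGTCA, which contains it and is known as the element of the estrogen-related receptors, was in Acsl6 alone and in 0.423% of all windows. The direct repeat of AGGTCA with 1 free base between the copies was in none of the 27 and in 0.0396% of all windows. A match is a description of letters and not a site. The windows of Acads and Hadhb are printed for the strongly lowered Acads and for the trifunctional pair, with the GC box in capitals on either strand. Those of Acadm, which fell, and Acsl6, which rose, are printed because they hold the extended site, in capitals as its reverse complement. The Acads window lies at chr5:115119297-115119596 on the minus strand, that of Hadhb at chr5:30155003-30155302 on the plus strand, that of Acadm at chr3:153944594-153944893 on the minus strand and that of Acsl6 at chr11:54303574-54303873 on the plus strand. Hadha and Hadhb start 86 bases apart and run in opposite directions, and their windows share 228 bases, so the Hadhb line shows most of the Hadha window as well.
Acads: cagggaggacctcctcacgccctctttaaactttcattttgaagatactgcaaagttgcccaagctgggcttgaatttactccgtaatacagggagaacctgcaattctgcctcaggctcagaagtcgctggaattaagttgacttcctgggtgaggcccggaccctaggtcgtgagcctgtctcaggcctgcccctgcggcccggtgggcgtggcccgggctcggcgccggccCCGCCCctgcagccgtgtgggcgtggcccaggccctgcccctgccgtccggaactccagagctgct
Hadhb: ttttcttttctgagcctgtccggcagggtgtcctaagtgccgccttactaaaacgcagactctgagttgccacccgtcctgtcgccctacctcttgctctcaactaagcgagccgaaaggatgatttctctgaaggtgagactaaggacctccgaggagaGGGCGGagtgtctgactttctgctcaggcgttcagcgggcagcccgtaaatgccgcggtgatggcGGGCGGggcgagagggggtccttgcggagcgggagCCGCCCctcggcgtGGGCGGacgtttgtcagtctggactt
Acadm: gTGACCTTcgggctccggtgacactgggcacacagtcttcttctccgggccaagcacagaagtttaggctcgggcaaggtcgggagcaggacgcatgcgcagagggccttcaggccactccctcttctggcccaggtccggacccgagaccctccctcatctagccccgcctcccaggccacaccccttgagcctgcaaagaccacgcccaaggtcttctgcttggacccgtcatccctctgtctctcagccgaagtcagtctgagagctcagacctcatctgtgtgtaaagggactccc
Acsl6: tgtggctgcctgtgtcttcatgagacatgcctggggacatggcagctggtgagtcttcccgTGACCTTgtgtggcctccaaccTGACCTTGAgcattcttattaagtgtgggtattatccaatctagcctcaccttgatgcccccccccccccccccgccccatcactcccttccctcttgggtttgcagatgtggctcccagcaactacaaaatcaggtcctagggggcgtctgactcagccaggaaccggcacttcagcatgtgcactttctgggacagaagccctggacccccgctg
The 7 bases of the extended site span bases 2 to 8 of the Acadm window and bases 62 to 68 and 84 to 90 of the Acsl6 window, where the second match runs on to base 92 as the longer form. The extended site was thus present in a gene that was lower and in a gene that was higher.

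Of the 3 electron transfer genes 2 fell. Etfa, the alpha subunit of the electron transfer flavoprotein, had 117.9, 147.1 and 191.5 CPM at 10 mg/kg/day, against 127.8, 178.9 and 263.7 CPM at 0 mg/kg/day (-0.24 ± 0.08, adjusted p = 0.0131), and without the 6 libraries it did not pass (-0.19, adjusted p = 0.103). Etfdh, which hands the electrons to ubiquinone, had 74.6, 100.9 and 170.3 CPM against 103.7, 132.8 and 220.3 CPM (-0.37 ± 0.09, adjusted p = 0.00114). The ranges of both overlapped widely. Etfb, the beta subunit, averaged 15.3 ± 2.13 CPM against 16.3 ± 3.18 CPM and did not pass (-0.10 ± 0.09, adjusted p = 0.355). Because 58.2% of Etfb's exonic bases also belong to other genes of the same strand, mainly Gm45233, its counts may be incomplete.

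Among the carnitine acyltransferases, Crat and Cpt2 fell. Crat (chromosome 2, 30400471 to 30415813, minus strand), carnitine acetyltransferase, which buffers acetyl-CoA in the matrix, varied little between mice. It had 422.1, 475.8, 378.3 and 405.2 CPM in hCYP2B6-Tg females at 10 mg/kg/day, against 536.1, 569.3, 590.8 and 512.0 CPM at 0 mg/kg/day. It had 490.5, 466.6 and 438.2 CPM in Cyp2b-null males, against 581.3, 547.1, 605.4 and 552.0 CPM. The groups did not overlap in these strata, nor in the others. The log2 fold change was small and precise, -0.34 ± 0.04 (adjusted p = 6.52e-09), and passed in each stratum. It did not pass in hCYP2B6-Tg males without their replicate 3 at 10 mg/kg/day (adjusted p = 0.0733) or in Cyp2b-null males without theirs (adjusted p = 0.0973). Cpt2, which returns the acyl group to coenzyme A inside the mitochondrion, had a lowest, median and highest level of 38.8, 46.7 and 64.1 CPM against 53.1, 67.3 and 95.5 CPM (-0.52 ± 0.07, adjusted p = 8.2e-08). It passed in all strata except hCYP2B6-Tg males (-0.31, adjusted p = 0.0916). Cpt1b, the muscle form of the gatekeeping transferase of the outer membrane, had as few as 20 counts in a library. It averaged 3.16 ± 0.803 CPM against 3.76 ± 1.14 CPM and did not pass (-0.25 ± 0.15, adjusted p = 0.163). Within strata it passed as lower in Cyp2b-null females alone, without overlap of CPM (-0.89, adjusted p = 0.0392). That call was lost in 7 of 48 fits that each left out 1 library. Its values were 0.11 and 0.02 in female and male hCYP2B6-Tg mice and -0.24 in Cyp2b-null males. Its exonic bases are 81.4% shared with Gm44502 on the same strand, so reads that fit both genes may not have been assigned, and its level of 1.12 CPM per kb at 0 mg/kg/day, next to 104.2 CPM per kb for Crat, should be read with that limit.

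The 4 synthetases and thioesterases went different ways. Acsl6 (chromosome 11, 54303798 to 54364756, plus strand), an acyl-CoA synthetase, had 80.2, 68.5 and 75.9 CPM in Cyp2b-null males at 10 mg/kg/day, against 41.0, 55.4, 40.2 and 53.8 CPM at 0 mg/kg/day. In hCYP2B6-Tg males it had 62.6, 36.2, 93.4 and 35.0 CPM, against 48.1, 44.7, 55.4, 47.3 and 41.6 CPM. Treated mice were above untreated ones without overlap in 3 strata, but the hCYP2B6-Tg males spread to both sides of their controls. Averaged over strata Acsl6 rose by a log2 fold change of 0.42 ± 0.09 (adjusted p = 1.86e-04). Acsl1, the main synthetase of muscle fibres, did not pass (318.8 ± 86.4 CPM against 302.1 ± 64.9 CPM, 0.06 ± 0.11, 95% interval -0.17 to 0.29). Acot13, a thioesterase associated with mitochondria, fell to 42.4 ± 6.03 CPM at 10 mg/kg/day, against 59.9 ± 7.66 CPM at 0 mg/kg/day (-0.51 ± 0.07, adjusted p = 1.78e-07), and passed in all 4 strata.

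Acot2 (chromosome 12, 83987861 to 83993873, plus strand), a thioesterase of the mitochondrial matrix, was the 1 gene of the 34 whose change differed among strata. In hCYP2B6-Tg females it had 20.5, 202.8, 42.8 and 14.5 CPM at 10 mg/kg/day, against 11.64, 29.8, 36.5 and 12 CPM at 0 mg/kg/day. In Cyp2b-null females it had 8.35, 6.24, 6.70 and 9.74 CPM, against 29.4, 24.8, 17.4 and 36.2 CPM. Among the hCYP2B6-Tg females the treated mice at 202.8 and 42.8 CPM were above every control and the other 2 lay within the control range, whereas the treated Cyp2b-null females all lay below theirs. The log2 fold changes were 1.64 ± 0.49 and -1.80 ± 0.51 in these strata, and -0.46 and -0.37 in hCYP2B6-Tg and Cyp2b-null males. The test for any difference among the 4 strata gave an adjusted p of 0.0437, in a comparison where 0.648% of all genes passed. The test of differences among strata lost Acot2 in 27 of 48 fits that each left out 1 library, and when libraries were scaled by their totals alone. Without replicate 2 of the hCYP2B6-Tg females given 10 mg/kg/day the hCYP2B6-Tg female value was 0.21 (adjusted p = 0.762), the difference among strata no longer passed and the average over strata passed as a fall (-0.60, adjusted p = 0.00959, against -0.25 ± 0.25 with it). The Cyp2b-null female fall did not pass without replicate 3 at 10 mg/kg/day (-1.74, adjusted p = 0.0614). Acot2 and its neighbour Acot1 are 94.3% identical over 1330 aligned bases, and 24.5% of the 50-base windows of Acot2 occur unchanged in Acot1, so reads of the pair could be exchanged or lost.

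**Figure D3:**
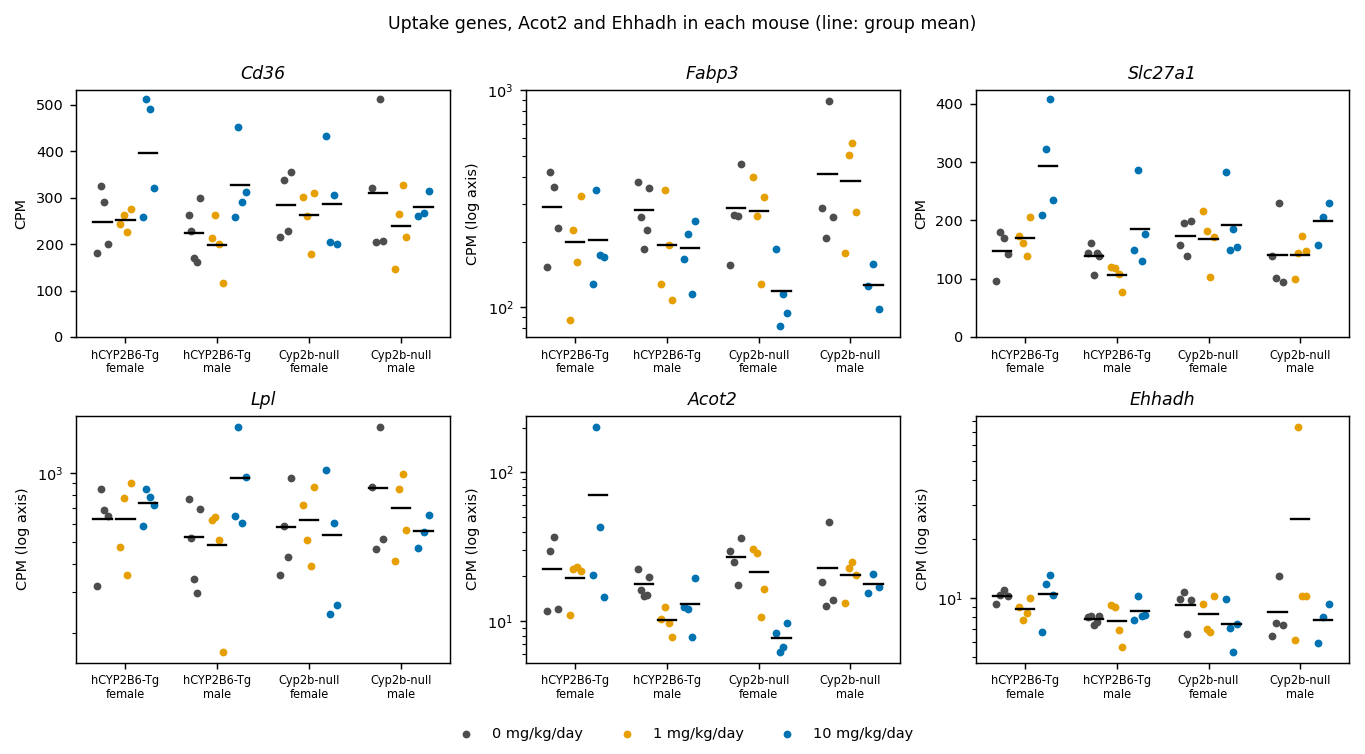
CPM of the uptake genes Cd36, Fabp3, Slc27a1 and Lpl and of Acot2 and Ehhadh in each mouse (points) by stratum, with 0, 1 and 10 mg/kg/day PFOS side by side and a line at each group mean; Fabp3, Lpl, Acot2 and Ehhadh are on log axes. Single mice stand far from their group in Fabp3 (894.1 CPM, a Cyp2b-null male at 0 mg/kg/day), Acot2 (202.8 CPM, an hCYP2B6-Tg female at 10 mg/kg/day) and Ehhadh (74.7 CPM, a Cyp2b-null male at 1 mg/kg/day).

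Of the 6 peroxisomal enzymes 2 fell and none rose (median -0.15, and 0.07 when libraries were scaled by their totals alone). Acaa1a, the peroxisomal thiolase, averaged 43.9 ± 5.05 CPM at 10 mg/kg/day and 52.1 ± 5.89 CPM at 0 mg/kg/day (-0.25 ± 0.06, adjusted p = 4.07e-04). Acad11, an acyl-CoA dehydrogenase of peroxisomes, averaged 48.7 ± 6.91 CPM and 56.2 ± 4.91 CPM (-0.21 ± 0.05, adjusted p = 0.00148). Both also had lower fitted levels in each of the 4 strata. Eci2, the peroxisomal enoyl-CoA isomerase (0.06 ± 0.09), Decr2, the peroxisomal dienoyl-CoA reductase (-0.08 ± 0.17), and Ehhadh, the bifunctional hydratase and dehydrogenase (-0.07 ± 0.20), did not pass. Hacl1, the lyase of alpha-oxidation, had 1 to 27 counts per library and did not pass (-0.32 ± 0.26). Acaa1a is 96.0% identical to Acaa1b over 1450 aligned bases. Its near copy was scarce, at 0.731 ± 0.588 CPM at 10 mg/kg/day and 0.255 ± 0.343 CPM at 0 mg/kg/day.

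Of the 4 uptake genes Fabp3 fell and Slc27a1 rose. Fabp3 (chromosome 4, 130308595 to 130315463, plus strand), the fatty acid binding protein of heart and muscle fibres, had the highest level per kilobase of the 34 genes, 383.3 ± 210.3 CPM per kb at 0 mg/kg/day (SD, n = 17). In Cyp2b-null males it had 125.5, 158.2 and 97.9 CPM at 10 mg/kg/day, against 285.6, 208.0, 894.1 and 260.9 CPM at 0 mg/kg/day. In hCYP2B6-Tg females it had 128.04, 347.9, 175.3 and 170.2 CPM, against 152.8, 419.3, 360.1 and 232.4 CPM. Of Fabp3's exonic bases 19.6% lie over genes of the opposite strand. Treated Cyp2b-null males lay below all their controls, whereas the hCYP2B6-Tg females overlapped. The log2 fold change averaged over strata was -1.01 ± 0.23 (adjusted p = 3.16e-04), with -0.50 and -0.58 in female and male hCYP2B6-Tg mice and -1.26 and -1.70 in female and male Cyp2b-null mice. Only the Cyp2b-null males passed alone among the strata (adjusted p = 0.0161), and without their replicate 3 at 0 mg/kg/day, the mouse at 894.1 CPM, their value was -0.98 (adjusted p = 0.17). It did not pass without replicate 1 (-1.69, adjusted p = 0.0605) or replicate 3 (-1.54, adjusted p = 0.0987) at 10 mg/kg/day either. The mouse at 894.1 CPM also had the highest slow fibre sum at 0 mg/kg/day (5461 CPM). With the mean of the slow fibre markers as a covariate, a fit chosen after seeing the data, the averaged fall of Fabp3 was -1.24 (adjusted p = 1.04e-06).

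Slc27a1 (chromosome 8, 71568882 to 71587302, plus strand), the transport protein FATP1, had 209.6, 322.6, 407.9 and 235.2 CPM in hCYP2B6-Tg females at 10 mg/kg/day, against 95.1, 180.3, 170.5 and 142.3 CPM at 0 mg/kg/day. The treated females were all above the untreated ones. Its log2 fold change was 0.51 ± 0.13 averaged over strata (adjusted p = 0.00125), and 1.00 ± 0.26 in hCYP2B6-Tg females (adjusted p = 0.00371). In the fit with adipocyte markers as a term the averaged value was 0.34 (adjusted p = 0.092). Cd36, the fatty acid translocase, averaged 325.7 ± 99.4 CPM against 264.4 ± 89.2 CPM and did not pass (0.27 ± 0.14, adjusted p = 0.117). It passed without replicate 3 of the Cyp2b-null males given 0 mg/kg/day (0.36, adjusted p = 0.0297). Lpl, lipoprotein lipase, spanned 240.2 to 1591 CPM against 298.3 to 1580 CPM and did not pass (0.09 ± 0.22). Cd36 and Lpl are also abundant in adipocytes, whose markers were higher at 10 mg/kg/day as given above. The median of the 4 uptake genes, 0.18, was -0.08 with the adipocyte markers and -0.03 with the slow fibre markers as a covariate.

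**Figure D4:**
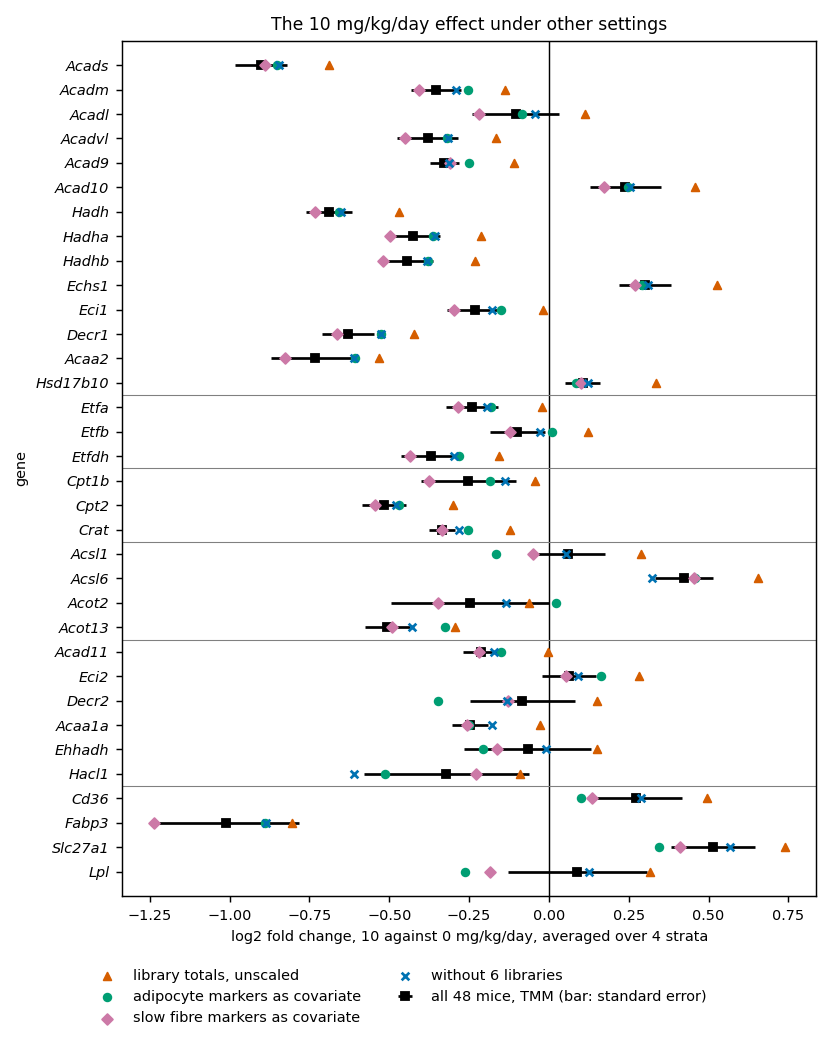
Log2 fold change of each gene at 10 against 0 mg/kg/day, as the average of 4 strata, under 5 settings: all 48 mice with TMM scaling (black squares, bar for the standard error), unscaled library totals, adipocyte markers as a covariate, slow fibre markers as a covariate, and without 6 libraries. Unscaled totals (triangles) move every gene to the right, while Acads stays between -0.69 and -0.90 and Slc27a1 between 0.34 and 0.74 under all 5.

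Within single strata 6 to 16 of the 34 genes were lower. In hCYP2B6-Tg females 8 genes were lower and 3 higher, where 13.5% and 14.2% of all genes tested were called lower and higher. In hCYP2B6-Tg males 6 were lower and 2 higher (10.6% and 7.92% of all genes). In Cyp2b-null females 16 were lower and none higher (6.87% and 5.83%), and in Cyp2b-null males 12 were lower and 1 higher (8.36% and 7.45%). When libraries were scaled by their totals alone, the counts lower and higher were 3 and 5 in female and 1 and 5 in male hCYP2B6-Tg mice. They were 4 and 2 in female and 7 and 1 in male Cyp2b-null mice. In both hCYP2B6-Tg strata more of the 34 were then higher than lower. That scaling moved genes in general upward, with 7520 of all 15583 higher and 1642 lower averaged over strata. The shares of all genes within strata under it are not given here. With TMM scaling the counts changed when single libraries were left out, which also leaves fewer mice in a group. The hCYP2B6-Tg male count of lower genes was 2 without replicate 3 at 10 mg/kg/day. The Cyp2b-null female count was 5 without replicate 3 and 10 without replicate 2 at 10 mg/kg/day. The Cyp2b-null male count was 5 without replicate 3 at 0 mg/kg/day and also 5 without replicate 3 at 10 mg/kg/day. Replicate 3 at 10 mg/kg/day of these strata held lymph node transcripts. The summed markers were 24.9 CPM in hCYP2B6-Tg males, 90.6 CPM in Cyp2b-null females and 8.35 CPM in Cyp2b-null males, with scaling factors of 1.21, 1.33 and 1.14. The part of this in the lost calls was not tested. Hadha in Cyp2b-null females lost its call with little change of value without replicate 3 at 10 mg/kg/day (-0.55, against -0.57). Acaa2 in Cyp2b-null males moved further without replicate 3 at 0 mg/kg/day (-0.52, against -0.92). Leaving out replicate 2 of the hCYP2B6-Tg females given 10 mg/kg/day left 1 of their 3 higher genes. The 2 higher in hCYP2B6-Tg males became 0 without replicate 3 at 0 mg/kg/day or without replicate 2 or 3 at 10 mg/kg/day, and 1 without replicate 1, 2 or 4 at 0 mg/kg/day or replicate 1 at 10 mg/kg/day. The 1 higher in Cyp2b-null males, Acsl6, did not pass without replicate 1 at 0 mg/kg/day or replicate 1 or 3 at 10 mg/kg/day. Without replicate 3 at 0 mg/kg/day Acsl6 did not pass either, and 2 other genes were higher. Without the 6 libraries together 2 genes were lower and none higher in hCYP2B6-Tg males, 5 were lower in Cyp2b-null females and 4 were lower in Cyp2b-null males. Of the 48 calls within strata, 19 passed without any 1 library.

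Across strata, 18 of the 34 genes had a fitted fall in all 4, where 22.8% of all genes did, and 3 had a fitted rise in all 4 (Acad10, Acsl6 and Slc27a1), where 25.0% of all genes did. Passing as lower in each of the 4 strata were 5 genes, Acads, Hadh, Decr1, Crat and Acot13, where 2.87% of all genes did. With library totals alone, where 1 gene was lower in hCYP2B6-Tg males, at most 1 did so. With TMM scaling that held for Acads and Hadh without any 1 library, while Decr1, Crat and Acot13 lost it in hCYP2B6-Tg males without replicate 3 at 10 mg/kg/day (adjusted p = 0.0672, 0.0733 and 0.136 in that order), and each also in another stratum without 1 of its libraries. In hCYP2B6-Tg females 6 genes were lower and 2 higher with no overlap of CPM between the doses, where 12.8% and 10.4% of all genes were. Among hCYP2B6-Tg males these were 5 and 2 genes (7.30% and 5.69%), among Cyp2b-null females 14 and 1 (7.28% and 7.07%) and among Cyp2b-null males 13 and 1 (13.9% and 14.3%). The CPM of treated and untreated mice did not overlap, with treated lower, in all 4 strata for 4 genes (Acads, Hadh, Decr1 and Crat), where 1.74% of all genes did the same. No gene of the 34 was higher without overlap in all 4 strata (0.809% of all genes). In 12 of the 34 genes no stratum passed alone. The share of all genes without a call in any stratum was not counted, so this number has no background beside it.

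Beside the difference of Acot2 among the 4 strata, the effect of 10 mg/kg/day was compared between the sexes, averaged over genotypes, and between the genotypes, averaged over sexes. For the sex difference, female minus male, edgeR passed 0 of the 34 and 0.128% of all genes (0.0706% above 0 and 0.0578% below). An unadjusted p under 0.05 was found for 1 of the 34, Acaa1a (-0.28 ± 0.11, adjusted p = 0.39), and for 1490 of all 15583 genes. For the genotype difference, hCYP2B6-Tg minus Cyp2b-null, edgeR passed 0 of the 34 and 0% of all genes. Here 8 of the 34 had an unadjusted p under 0.05, as did 1378 of all 15583 genes. DESeq2 and limma also passed 0 of the 34 in both. A genotype difference above 0 is a fall less deep or a rise larger in hCYP2B6-Tg mice. The fitted differences were above 0 in 30 of the 34 genes and in 7945 of all 15583 genes tested, with medians of 0.28 and 0.01. The largest was that of Acot2 (1.68 ± 0.50, adjusted p = 0.39), and Cd36 (0.68 ± 0.29) and Acadm (0.36 ± 0.16) followed by p (adjusted p = 0.505 and 0.515). These values are not shown to differ from 0 after adjustment, and they are not shown to be alike either: the 95% interval of the Acadm difference was 0.04 to 0.67.

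At 0 mg/kg/day the genotypes did not differ in any of the 34 genes past the threshold (0 in edgeR, DESeq2 and limma, 0% of all genes; 1 of the 34, Cpt1b, had an unadjusted p under 0.05). Between the sexes 1 gene differed, where 7.59% of all genes did (2.86% higher and 4.73% lower in females). Acaa1a was higher in females than in males (0.24 ± 0.08, adjusted p = 0.0447). Its untreated females had 53.7, 53.5, 56.7 and 56.9 CPM (hCYP2B6-Tg) and 58.2, 55.8, 61.8 and 56.9 CPM (Cyp2b-null), against 48.9, 54.1, 41.5, 56.4 and 46.8 CPM and 42.6, 45.1, 49.4 and 47.8 CPM in males of the same genotypes. The sexes overlapped in hCYP2B6-Tg mice and did not overlap in Cyp2b-null mice. The call did not pass with the mouse number as a block or without the filter on low counts, and it was lost without any 1 of 16 libraries.

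At 1 mg/kg/day none of the 34 genes passed against 0 mg/kg/day. In the average over strata edgeR, DESeq2 and limma passed 0 of the 34 each, and 0% of all genes passed in edgeR. An unadjusted p under 0.05 was found in edgeR for 1 of the 34, Etfdh (-0.19 ± 0.09), and for 578 of all 15583 genes. The median of the 34 was -0.08, with 28 below 0, against a median of 0.00 and 7962 of 15583 below 0 over all genes tested. The 2 dose effects use the same mice at 0 mg/kg/day and are therefore given side by side. Mean Acads was 68.9 ± 8.13, 64.1 ± 9.87 and 37.2 ± 7.0 CPM at 0, 1 and 10 mg/kg/day, with a log2 fold change of -0.11 at 1 mg/kg/day (95% interval -0.26 to 0.05) and -0.90 at 10 mg/kg/day (-1.07 to -0.74). Mean Hadh was 143.3 ± 23.2, 133.4 ± 21.5 and 89.2 ± 9.68 CPM at 0, 1 and 10 mg/kg/day, with -0.11 (-0.24 to 0.03) and -0.69 (-0.83 to -0.55). Mean Crat was 561.5 ± 27.0, 546.7 ± 33.8 and 444.3 ± 42.7 CPM, with -0.04 (-0.12 to 0.04) and -0.34 (-0.42 to -0.26). For these genes the interval at 1 mg/kg/day lay wholly above that at 10 mg/kg/day. Fabp3 was less certain: it averaged 315.5 ± 173.1, 263.7 ± 141.9 and 162.1 ± 69.8 CPM, with -0.31 (-0.74 to 0.13) and -1.01 (-1.46 to -0.56).

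**Figure D5:**
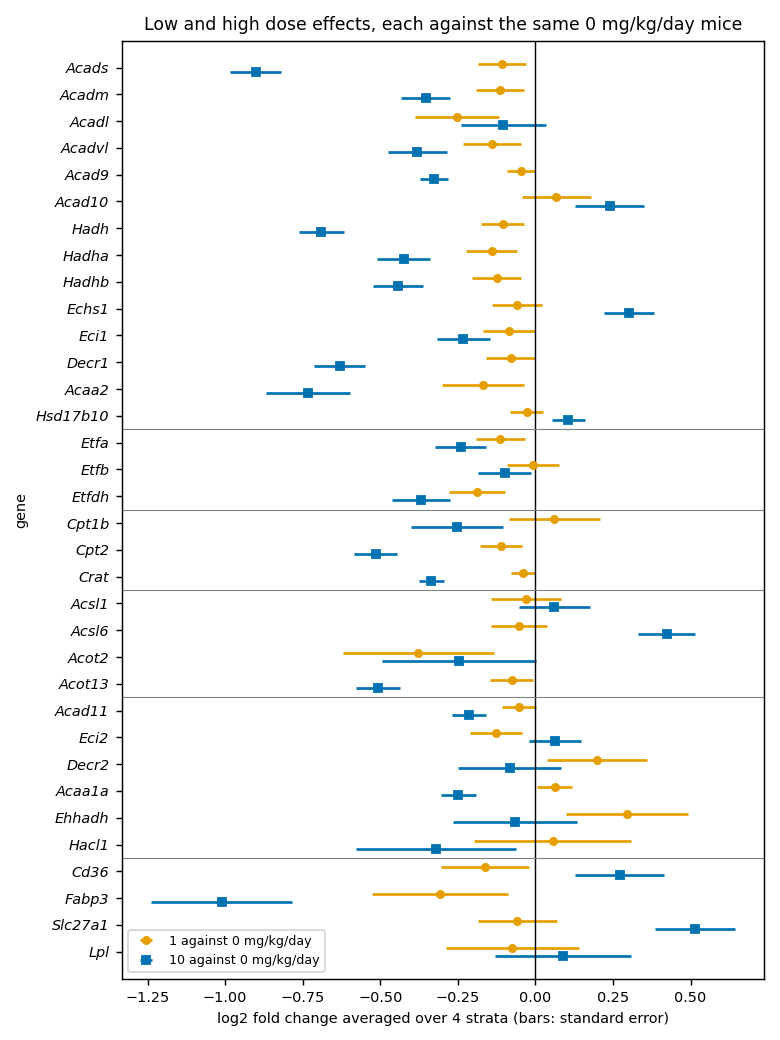
Log2 fold change of each of the 34 genes at 1 mg/kg/day (orange circles) and 10 mg/kg/day (blue squares) against the same mice at 0 mg/kg/day, as the average of 4 strata, with bars for the standard error. The orange values lie between -0.38 and 0.30 and the blue ones between -1.01 and 0.51.

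Set against 1 mg/kg/day, 10 mg/kg/day lowered 15 of the 34 genes and raised 5, where 46.9% of all genes tested were called, 22.2% lower and 24.7% higher. When libraries were scaled by their totals alone, 7 were lower and 9 higher. The share of all genes in that fit is not given here. At 10 against 0 mg/kg/day that scaling gave 1642 lower and 7520 higher of all 15583 genes. Acads (-0.79 ± 0.08, adjusted p = 3.4e-10), Hadh (-0.58 ± 0.07, adjusted p = 1.64e-08) and Crat (-0.29 ± 0.04, adjusted p = 1.18e-07) were again lower. The 5 higher genes were Echs1 (0.36), Acsl6 (0.48), Slc27a1 (0.57), Cd36 (0.44) and Hsd17b10 (0.13, adjusted p = 0.0401). This comparison uses the same treated mice as the one against 0 mg/kg/day.

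Within strata, 1 mg/kg/day moved none of the 34 genes past the threshold. An unadjusted p under 0.05 was found for 0 and 1 of them in female and male hCYP2B6-Tg mice (656 and 709 of all 15583 genes). For female and male Cyp2b-null mice it was 0 and 3 (327 and 767 of all genes). Across all genes tested 0.0128% passed in hCYP2B6-Tg males and 0% in the other strata. The nearest was Ehhadh in Cyp2b-null males (1.57 ± 0.39, adjusted p = 0.191), where replicate 2, the library with liver transcripts, had 74.7 CPM and the other 3 mice had 6.12 to 10.3 CPM. Liver is rich in this enzyme. Without replicate 1, 3 or 4 of the same group 1 of the 34 genes passed. The same library had 14.7 CPM of Decr2 against 3.33 to 4.14 CPM in the others.

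Other genes of fatty acid handling were read at 10 against 0 mg/kg/day from lists by role, with TMM scaling alone. Of all 15583 genes tested, 3511 were lower and 3892 higher in that comparison (median 0.04). The list counts below are to be read beside those, and some lie near or under them, such as the further uptake genes. Of 15 further peroxisomal genes 11 fell and 1 rose (median -0.31). Phyh, which starts alpha-oxidation of phytanic acid, averaged 85.0 ± 19.3 CPM against 137.5 ± 23.4 CPM (-0.70 ± 0.09, adjusted p = 1.47e-08). The peroxisomal acyl-CoA importer Abcd3 (-0.47 ± 0.07) and the racemase Amacr (-0.34 ± 0.06) fell too. Of 15 other mitochondrial acyl-CoA and ketone body genes 13 were tested, of which 7 fell and 1 rose (median -0.20). Oxct1, which lets muscle burn ketone bodies, fell to 194.0 ± 45.8 CPM, against 400.7 ± 77.3 CPM (-1.07 ± 0.09, adjusted p = 6.47e-12). Acad8 (-0.42 ± 0.04) and Pccb (-0.34 ± 0.04), which serve valine and propionate breakdown, fell, and Acadsb, a dehydrogenase of short branched chains, rose (0.28 ± 0.04).

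Of 15 further genes of activation, carnitine and malonyl-CoA, 7 fell and 4 rose (median -0.02). Acsl3, a synthetase of lipid droplets and endoplasmic reticulum, averaged 32.4 ± 12.5 CPM against 17.9 ± 10.5 CPM (1.01 ± 0.12, adjusted p = 4.01e-09). Acacb, which makes the malonyl-CoA that restrains Cpt1b, averaged 600.3 ± 202.3 CPM against 459.2 ± 41.5 CPM (0.39 ± 0.09, adjusted p = 5e-04). The thioesterase Acot7 (-0.47 ± 0.07) and the carnitine transporter Slc22a5 (-0.39 ± 0.08) fell. Of 10 further uptake genes 2 rose and 1 fell: Fabp4, the binding protein of adipocytes and endothelium (241.9 ± 160.7 CPM against 134.6 ± 28.8 CPM, 0.76 ± 0.24, adjusted p = 0.00806), the receptor Lrp1 (0.61 ± 0.17), and Got2, an aminotransferase also described at the plasma membrane (-0.42 ± 0.07). Of 11 lipid droplet genes 5 rose and none fell (median 0.23), among them the triglyceride lipase Pnpla2 (419.9 ± 195.1 CPM against 231.5 ± 45.1 CPM, 0.83 ± 0.14, adjusted p = 7.87e-06), the droplet protein Plin4 (0.66 ± 0.13), the acyltransferase Dgat1 (0.83 ± 0.16) and the lipase Lipe (0.99 ± 0.24). Adipocytes also express Fabp4, Pnpla2, Plin4 and Lipe, and 6 of 8 adipocyte markers were higher in the same comparison.

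Regulators of the pathway moved both ways, with 9 of 22 higher and 7 lower (median 0.07). Esrra, the estrogen-related receptor alpha, which drives many oxidation genes, averaged 62.4 ± 10.98 CPM at 10 mg/kg/day and 113.5 ± 16.5 CPM at 0 mg/kg/day (-0.86 ± 0.08, adjusted p = 3.48e-11). Sirt3, a deacetylase of mitochondrial enzymes, fell to 6.3 ± 1.16 CPM, against 12.6 ± 2.24 CPM (-0.99 ± 0.11, adjusted p = 3.01e-09). Rxrg, a retinoid X receptor that partners nuclear receptors in muscle (-0.93 ± 0.13), and Tfam, the transcription factor of mitochondrial DNA (-0.37 ± 0.05), were also lower. The fitted values of Esrra, Sirt3, Rxrg and Tfam were below 0 in each of the 4 strata.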

How the data were processed

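Messenger RNA of gastrocnemius from 48 mice was measured by RNA-seq. The values are whole-number read counts per gene, as deposited, with raw counts for 54532 genes and their GRCm38 coordinates in 1 table. Per the submitters' processing notes, HISAT2 and GRCm39 were named without role or version. No source used here gives the counter, the annotation or the use of strand. The 34 genes, the pathway lists and the marker lists were chosen with earlier results of these data known. Genes were kept by filterByExpr of edgeR (minimum count 10), scaled with TMM and fitted with 1 mean per group, over 12 groups and 36 residual degrees of freedom (edgeR 4.0.16 in R 4.3.3, quasi-likelihood test). Averages weight the 4 strata equally, adjusted p-values are Benjamini-Hochberg over all 15583 genes, and the threshold was 0.05; CPM use the scaled library sizes and SE is the fold change over the root of F. Members are named in full; the other genes of each pathway list are named as the 4 smallest adjusted p past the threshold in the list, except that single genes of the peroxisomal list are not reported here. Alternatives were DESeq2 1.42.0, limma 3.58.1 voom with quality weights, other scalings and filters, marker covariates, leaving out each library or 6 together, and the mouse number as a block. The biological coefficient of variation was 23.5%. On simulated counts, 100 genes each were changed by 0.5 and 1.0 on the log2 scale, among 15284 in the fit. Scarce genes were not among those changed. The changes of 0.5 and 1.0 were recovered in 70% and 98% of genes in the averaged 10 against 0 mg/kg/day comparison. In hCYP2B6-Tg females these were 27% and 76%. Far more genes were called in the real data, so these rates need not hold there or for scarce genes. The closest pair of replicates differed by 7.85 times the counting variance, so no library was counted as deposited more than once. Promoter windows, paralog identities and shared exons were read with Biopython 1.88.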

Additional observations from a re-analysis of the deposited data

Results flagged for a closer look

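Each group of 4 or 5 mice was searched for a mouse standing far from the rest of its group, by Dixon's test on CPM. Of 374 group values 30 stood out (8.0%), where chance gives about 1 in 20. In Cyp2b-null males at 0 mg/kg/day, replicate 3 stood out as high in 10 genes: Acadvl (241.9 CPM, others 118.6 to 131.1), Hadhb (472.5, others 266.6 to 280.0), Echs1 (156.0, others 89.4 to 99.7), Eci1 (159.9, others 76.4 to 90.2), Decr1 (161.6, others 87.1 to 95.6), Etfa (263.7, others 148.3 to 160.8), Acot2 (46.7, others 12.6 to 18.4), Acot13 (68.7, others 53.8 to 55.8), Ehhadh (13, others 6.41 to 7.45) and Fabp3 (894.1, others 208.0 to 285.6). Its slow fibre sum was 5461 CPM, the highest at 0 mg/kg/day, and the part of that in these values was not tested.

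In Cyp2b-null males at 1 mg/kg/day, replicate 2, the library with 27859 counts of Alb, was high in Acad10 (10.2 CPM, others 5.63 to 6.28), Decr2 (14.7, others 3.33 to 4.14) and Ehhadh (74.7, others 6.12 to 10.3). In hCYP2B6-Tg females at 1 mg/kg/day, replicate 1 was low in Etfa (126.1 CPM, others 183.1 to 186.2), Acot2 (10.96, others 21.6 to 23.2) and Eci2 (35.9, others 43.9 to 44.4). In hCYP2B6-Tg females at 10 mg/kg/day, replicate 2 was high in Hadha (402.8 CPM, others 246.0 to 269.9) and Acot2 (202.8, others 14.5 to 42.8). In hCYP2B6-Tg males at 10 mg/kg/day, replicate 3 was low in Acadm (230.4 CPM, others 307.1 to 321.1) and Acadvl (111.002, others 134.9 to 137.5). In hCYP2B6-Tg males at 0 mg/kg/day, replicate 2 was high in Acad11 (60.9 CPM, others 49.7 to 52.4) and Hacl1 (1.19, others 0.494 to 0.614).

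The other 8 were single genes. High mice were Acad9 at 37.2 CPM (Cyp2b-null male at 0 mg/kg/day, others 31.6 to 32.5), Echs1 at 141.4 CPM (Cyp2b-null female at 0 mg/kg/day, others 116.6 to 118.4), Hsd17b10 at 52.8 CPM (hCYP2B6-Tg female at 0 mg/kg/day, others 46.1 to 47.1) and Hacl1 at 1.496 CPM (Cyp2b-null female at 0 mg/kg/day, others 0.727 to 0.851). Low mice were Acad10 at 5.97 CPM (hCYP2B6-Tg female at 0 mg/kg/day, others 7.77 to 8.09), Cpt2 at 53.1 CPM (hCYP2B6-Tg male at 0 mg/kg/day, others 66.8 to 69.7), Acsl6 at 35.2 CPM (Cyp2b-null female at 0 mg/kg/day, others 38.4 to 38.7) and Acot13 at 50.8 CPM (hCYP2B6-Tg male at 1 mg/kg/day, others 59.1 to 59.8).

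The effect of 10 mg/kg/day on Acot2 differed among the 4 strata (adjusted p = 0.0437), as described with its values above.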

How the results depend on the processing

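At 10 against 0 mg/kg/day, Acads, Hadh, Decr1, Crat, Cpt2, Acot13, Fabp3, Echs1 and Acsl6 kept their direction and passed under every alternative run on the average over strata. So did Hadha, Hadhb, Acaa2 and Acad9. The counts of 18 lower and 3 higher genes were unchanged with DESeq2's size factors, no filter, the strict filter, the mouse number as a block, and DESeq2, and were 19 and 4 in limma, 15 and 2 with adipocyte markers, 16 and 3 without 6 libraries, and 19 and 3 with slow fibre markers. Same-numbered mice did not deviate together (7 of 46 correlations over 0.1), so the number is not a pairing. The cause of the shifts below was not tested. Depth limits Cpt1b and Hacl1 most.

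With unscaled library totals the counts lower and higher were 11 and 7 averaged at 10 against 0 mg/kg/day, 7 and 9 at 10 against 1 mg/kg/day, 3 and 5 in female and 1 and 5 in male hCYP2B6-Tg mice, 4 and 2 in female Cyp2b-null mice, with 7 lower in the Cyp2b-null males; 0 genes differed among strata. In the averaged fit at 10 against 0 mg/kg/day 1642 of all 15583 genes were lower and 7520 higher, with a median of 0.255. Medians of the members were then -0.035 (all 34), -0.153 (spiral), -0.021 (electron transfer), -0.122 (carnitine), 0.114 (synthetases and thioesterases) and 0.074 (peroxisomal). Acadl (0.113), Etfb (0.121), Ehhadh (0.152) and Decr2 (0.150) turned upward.

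Without the filter, hCYP2B6-Tg males had 3 lower and 1 higher, 1 gene passed at 1 mg/kg/day in Cyp2b-null males, and 0 differed between sexes at 0 mg/kg/day. With the block, 0 differed among strata and 0 between sexes. In limma, 1 was higher in female hCYP2B6-Tg mice and 3 in male Cyp2b-null mice, 0 differed among strata and 3 between sexes, and Eci2 was -0.005. With adipocyte markers, hCYP2B6-Tg males had 2 lower and 0 higher, Cyp2b-null females 5 lower, and 0 differed among strata; the uptake median was -0.081, Lpl -0.262, Acsl1 -0.165, Acot2 0.023 and Etfb 0.011. Without the 6 libraries, hCYP2B6-Tg males had 2 lower and 0 higher, Cyp2b-null females 5 and Cyp2b-null males 4 lower, 0 differed among strata and 2 between sexes. With slow fibre markers, chosen after seeing the data, 3 were higher at 10 against 1 mg/kg/day and 0 in hCYP2B6-Tg males; the uptake median was -0.026, Lpl -0.186 and Acsl1 -0.050.

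Leaving out 1 library at a time, lower and higher counts ranged over 17 to 19 and 3 to 5 (10 against 0 mg/kg/day), 14 to 17 and 4 to 6 (10 against 1 mg/kg/day), 7 to 10 and 1 to 4 (hCYP2B6-Tg females), 2 to 7 and 0 to 2 (hCYP2B6-Tg males), 5 to 18 and 0 (Cyp2b-null females) and 5 to 13 and 0 to 2 (Cyp2b-null males). The count was 0 to 1 at 1 mg/kg/day in Cyp2b-null males, 0 to 1 among strata and 0 to 2 between sexes. The synthetase median ranged from -0.229 to 0.009. Eci2 ranged from -0.022 to 0.103, Lpl from -0.051 to 0.208 (-0.003 in another fit), Acsl1 from -0.025 to 0.114 and Ehhadh from -0.114 to 0.001.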
